A study of Homo sapiens with 6 samples.

Results

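The 10 genes *APC*, *CTNNB1*, *AXIN1*, *AXIN2*, *LGR5*, *ASCL2*, *RNF43*, *ZNRF3*, *NKD1* and *TCF7* were followed as the Wnt pathway and intestinal stem cell genes, out of 63677 genes in the count table. They were chosen by name, as parts of the β-catenin destruction complex, feedback targets of Wnt signaling or genes of the crypt stem cell, and each matched 1 row of the table. The RNA came from cells labelled as LoVo, an established human colorectal cancer line. Scramble libraries (n = 3) came from cells transfected with a negative control siRNA. *SNHG15* siRNA libraries (n = 3) came from cells transfected with a combination of both *SNHG15* siRNAs, so the effect of each siRNA cannot be told apart. All 6 samples received Lipofectamine 2000 and 25 nM siRNA for 48 h and represent 1 cell line. The study calls them biological replicates, but the labels name no separate cultures, so p-values measure the spread between these libraries, which may be partly technical.

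In the Wnt pathway, secreted Wnt proteins bind Frizzled receptors and the co-receptors LRP5 and LRP6. Without that signal, a complex built on the scaffolds APC and AXIN marks β-catenin, the product of *CTNNB1*, for destruction. With the signal, or when APC is truncated by mutation, as is known for LoVo and for most colorectal tumors, β-catenin builds up, enters the nucleus and activates target genes together with TCF and LEF factors. Several of these targets limit the pathway in turn. AXIN2 rebuilds the destruction complex, NKD1 binds Dishevelled, and the membrane ubiquitin ligases RNF43 and ZNRF3 remove Frizzled from the cell surface. At the base of the intestinal crypt, R-spondins bind LGR5 and its relatives and block these ligases, and the transcription factor ASCL2 maintains the stem cell state.

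Libraries held between 3446922 and 10256710 counts, and scramble replicate 3 was the shallowest. *SNHG15*, the targeted lncRNA, fell from a mean of 276 to 82.5 CPM (n = 3 each, log2 fold change -1.74, standard error 0.12), where CPM is a gene's count scaled to a common library size, with each library's total first adjusted by its TMM factor. Over the 12507 genes that passed a filter on low counts, 671 genes (5.36%) changed at an adjusted p under 0.05 in edgeR's quasi-likelihood test (Benjamini-Hochberg), 392 of them higher (3.13% of those tested) and 279 lower (2.23%) with the *SNHG15* siRNAs. An unadjusted p under 0.05 was found for 2820 genes (22.5% of those tested), and DESeq2 called 761 genes, 5.8% of those it tested. The balance of directions depended on scaling, with 515 higher and 230 lower under upper-quartile factors, 437 and 564 with an offset for GC content, 343 and 385 with an offset for transcript length, and 377 and 428 with the replicate block and the GC offset.

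The label was set against markers of the colorectal epithelium, and several defining markers were missing. Of 12 epithelial markers, 5 had 0 counts in every library (*KRT19*, *KRT20*, *CDX1*, *VIL1* and *TSPAN8*), and *EPCAM* and *CEACAM5* had at most 1 count in any library. *LGALS4* had at most 4. The remaining markers were counted in all libraries, with *KRT8* at 46.5 ± 4.40, *CDX2*, the intestinal homeobox factor, at 27.9 ± 1.37, *KRT18* at 23.9 ± 3.23 and *CDH1*, which encodes E-cadherin, at 7.52 ± 1.06 CPM in the scramble libraries (SD, n = 3). The summed level of the list was 102 to 110 CPM in the scramble and 106 to 117 CPM in the siRNA libraries. Fibroblast markers summed to at most 1.25 CPM and leukocyte markers to at most 0.302 CPM in any library. Because of the missing markers the cells are called the cells labelled LoVo, and whether the RNA came from another line was not tested. Counts per gene do not show whether *APC* was mutated here.

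Of the 10 genes, 7 were tested and 3 lay at or under 3 counts in every library. Among the 7, 1 gene changed at an adjusted p under 0.05, against 5.36% of all genes tested in either direction and 3.13% higher. DESeq2 also called 1, *APC*, against 5.8% of all genes. *APC* rose, and *CTNNB1*, *AXIN1*, *AXIN2*, *ZNRF3*, *NKD1* and *TCF7* did not pass. In 1 of the 7 (14.3%) the conditions did not overlap, against 28.8% of all genes tested. *APC* reached the filter only through its level in the siRNA libraries, since 3 siRNA and 0 scramble libraries exceeded the filter's level of 1.31 CPM, so these counts say nothing about the 10 genes as a group. The median log2 fold change of the 7 was -0.0005, beside 0.0005 over all genes tested.

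**Figure D1:**
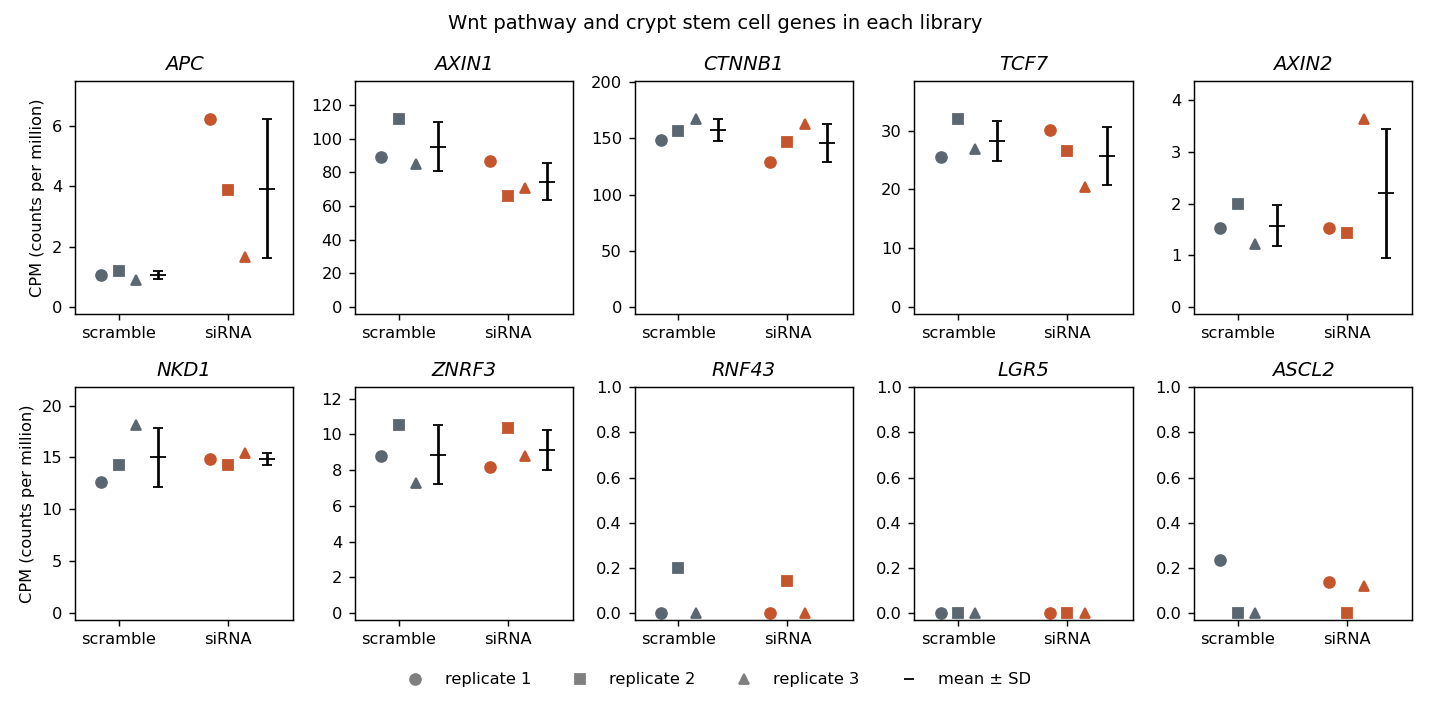
Level of each of the 10 genes (vertical axes, CPM, each from 0) in the 3 scramble (grey) and 3 *SNHG15* siRNA libraries (orange), with the mean and SD over 3 libraries for the genes above 3 counts. *APC* lies between 0.907 and 1.19 CPM in the scramble and between 1.64 and 6.24 CPM in the siRNA libraries, the conditions of the other tested genes overlap, and *LGR5*, *RNF43* and *ASCL2* lie at or near 0.

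*APC* encodes the large scaffold that holds the destruction complex together and is the gene most often mutated in colorectal cancer. Its gene (ENSG00000134982) lies on the plus strand of chromosome 5 from 112043215 to 112181936 in GRCh37, and its canonical transcript has 16 exons and 10704 bases. Reads assigned to it numbered 9, 12 and 3 in the scramble libraries (replicates 1 to 3) and 45, 27 and 14 after *SNHG15* siRNA. After scaling these were 1.06, 1.19 and 0.907 CPM against 6.24, 3.88 and 1.64 CPM. Every siRNA library lay above every scramble library, but the siRNA libraries spread widely, with replicate 1 highest and replicate 3 close to the scramble level. On the log2 scale the fold change was 1.81 (standard error 0.47, 95% interval 0.79 to 2.83), a fold of 3.50 with an interval of 1.73 to 7.10, and the adjusted p from edgeR was 0.0431. An exact permutation test of the 6 CPM values, two-sided, gave p = 0.1, the smallest that 3 against 3 allow. In bulk RNA, more cells with *APC* RNA and more of it in each cell cannot be told apart, and the same holds for every gene below.

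The call for *APC* rested on few reads and lay close to the threshold. In the 14 alternative fits that gave *APC* a value, the log2 fold change lay between 1.28 and 2.20 and the adjusted p between 0.00015 and 0.156. These fits reuse the same libraries, whose conditions do not overlap for *APC*, so their shared direction adds no support. Without scramble replicate 1, 2 or 3 the adjusted p from edgeR was 0.144, 0.156 and 0.112, without siRNA replicate 1 it was 0.0942 with a log2 fold change of 1.28, without siRNA replicate 2 it was 0.0875, and without siRNA replicate 3 it was 0.00692. With an offset for transcript length the adjusted p was 0.0509. The 683 tested genes whose canonical transcript has 8000 to 12000 bases, the class of *APC*, were centred (median) on a log2 fold change of 0.042, and the 214 longer ones on 0.081, beside 0.0012 for the 3905 genes under 2000 bases. The part of transcript length in the rise of *APC* was not tested beyond this offset.

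**Figure D2:**
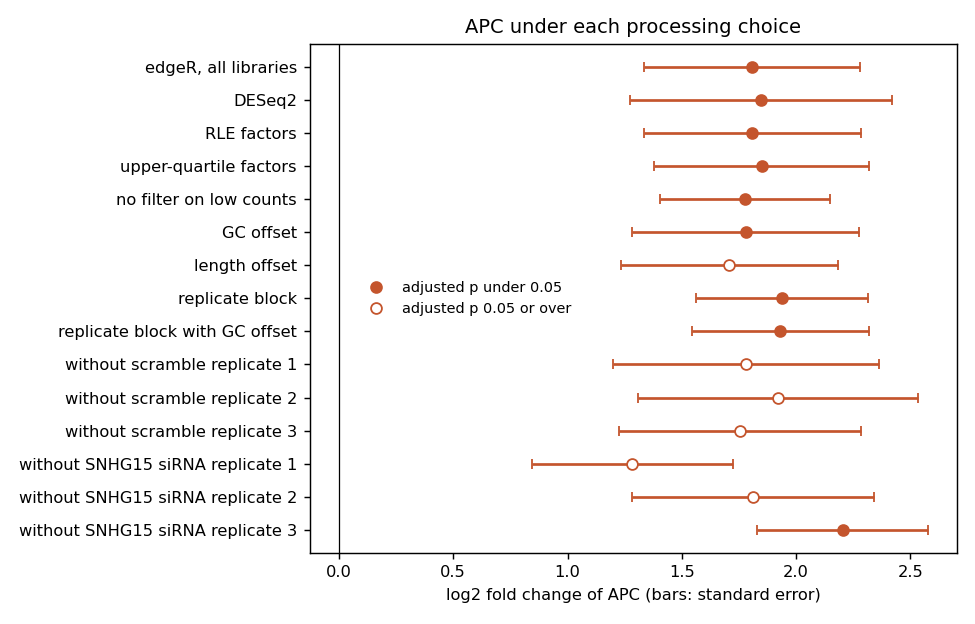
Log2 fold change of *APC*, *SNHG15* siRNA against scramble (horizontal axis), with its standard error under each processing choice that gave a value, where filled points have an adjusted p under 0.05. All points lie between 1.28 and 2.20, and the open points include 5 of the 6 fits that leave out a library.

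The promoters of *APC* are shown because it was the member past the threshold. RefSeq promoters (GRCh38.p14, 250 bases before to 50 after a start) were found for 5 of the 10 genes, *APC*, *CTNNB1*, *AXIN1*, *RNF43* and *TCF7*, and the 120 bases before each start are printed 5′ to 3′ with CG pairs in capitals. *AXIN2*, *LGR5*, *ASCL2*, *ZNRF3* and *NKD1* have no entry there.
*APC* start 1, chr5:112707378-112707497, plus strand: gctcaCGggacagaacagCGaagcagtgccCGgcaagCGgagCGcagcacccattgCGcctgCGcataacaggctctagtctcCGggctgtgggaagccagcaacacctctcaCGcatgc
*APC* start 2, chr5:112737765-112737884, plus strand: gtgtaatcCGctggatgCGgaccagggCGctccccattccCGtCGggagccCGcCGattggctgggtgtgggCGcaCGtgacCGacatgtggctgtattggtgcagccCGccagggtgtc
The start 2 promoter holds the E-box CACGTG, the letters that MYC and related factors recognise, with its first base at position -46, counted from -1 at the last base before the start. This palindrome reads the same on both strands, and 7.26% of all 35116 promoters in the table hold it. The TCF core CTTTGAT, searched on both strands, occurred in 0 of the 8 promoters of these genes and in 2.62% of all promoters. These matches describe the letters of the window only.

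*CTNNB1*, the β-catenin gene, was the most abundant of the 10 and did not pass the threshold. It had 148, 156 and 168 CPM in the scramble and 129, 146 and 163 CPM in the siRNA libraries. The values of both conditions were interleaved, with the lowest in siRNA replicate 1. The fitted log2 difference was -0.11 (standard error 0.13, n = 3 each) and its 95% interval -0.38 to 0.17, or a fold of 0.770 to 1.12, and the adjusted p from edgeR was 0.666. This rested on 554 to 1569 raw counts per library. The gene (ENSG00000168036) lies on the plus strand of chromosome 3 from 41236232 to 41301587 in GRCh37.

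*AXIN1*, the constitutive scaffold beside APC and thought to be limiting in the complex, had 89.1, 112 and 84.7 CPM in the scramble and 86.7, 65.9 and 70.4 CPM in the siRNA libraries. The *SNHG15* siRNA libraries were lower on average, but siRNA replicate 1 lay above scramble replicate 3. Its log2 fold change was -0.36 (standard error 0.15, 95% interval -0.69 to -0.042). The edgeR p was 0.0296 before and 0.171 after adjustment. With the offset for GC content, at 63.8% GC in its longest transcript, it was -0.49 with an adjusted p of 0.0373, and without siRNA replicate 1 it was -0.49 with an adjusted p of 0.0413. *AXIN1* (ENSG00000103126) spans 337440 to 402723 of chromosome 16 in GRCh37, minus strand.

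*AXIN2*, the scaffold that β-catenin itself induces, is widely read as a measure of pathway activity, and it was barely counted. Its raw counts were 13, 20 and 4 in the scramble and 11, 10 and 31 in the siRNA libraries, or 1.52, 1.99 and 1.21 against 1.53, 1.44 and 3.64 CPM. The high value belonged to siRNA replicate 3, and the other siRNA libraries lay within the scramble range. The difference was 0.44 on the log2 scale (standard error 0.41). Its 95% interval ran from -0.46 to 1.33, which holds folds from 0.728 to 2.51, and the adjusted p from edgeR was 0.573. Without siRNA replicate 3 the log2 fold change was -0.16. *AXIN2* (ENSG00000168646) spans 63524681 to 63557766 of chromosome 17 in GRCh37, minus strand. In the GENCODE annotation 25.3% of its exon bases also belong to ENSG00000266076 on the same strand, which had 0 counts, and whether reads there were set aside was not tested.

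*NKD1* (ENSG00000140807, plus strand of chromosome 16 from 50582307 to 50683160) had 12.7, 14.2 and 18.1 CPM in the scramble and 14.8, 14.2 and 15.4 CPM in the siRNA libraries, with all siRNA values inside the scramble range. Its log2 fold change was 0.018 (standard error 0.17, 95% interval -0.35 to 0.39). *ZNRF3* (ENSG00000183579, plus strand of chromosome 22 from 29279560 to 29453476), the ubiquitin ligase for Frizzled, had 8.79, 10.5 and 7.26 CPM in the scramble and 8.18, 10.4 and 8.81 CPM in the siRNA libraries, again inside the scramble range. Its log2 fold change was -0.0005 (standard error 0.19, 95% interval -0.40 to 0.40). The adjusted p values from edgeR were 0.964 and 0.999. For both feedback targets the intervals allow changes of up to 0.40 on the log2 scale in either direction.

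*TCF7*, a DNA-binding partner of β-catenin that is also its target, had 25.6, 32.0 and 26.9 CPM in the scramble and 30.1, 26.6 and 20.3 CPM in the siRNA libraries. The conditions overlapped, and siRNA replicate 3 was lowest. The log2 fold change was -0.14 (standard error 0.17, 95% interval -0.52 to 0.23), and the adjusted p from edgeR was 0.663. *TCF7* (ENSG00000081059) lies on the plus strand of chromosome 5 from 133450372 to 133487556 in GRCh37. A small part of its exon bases, 2.1%, lies opposite *SKP1* on the other strand.

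**Figure D3:**
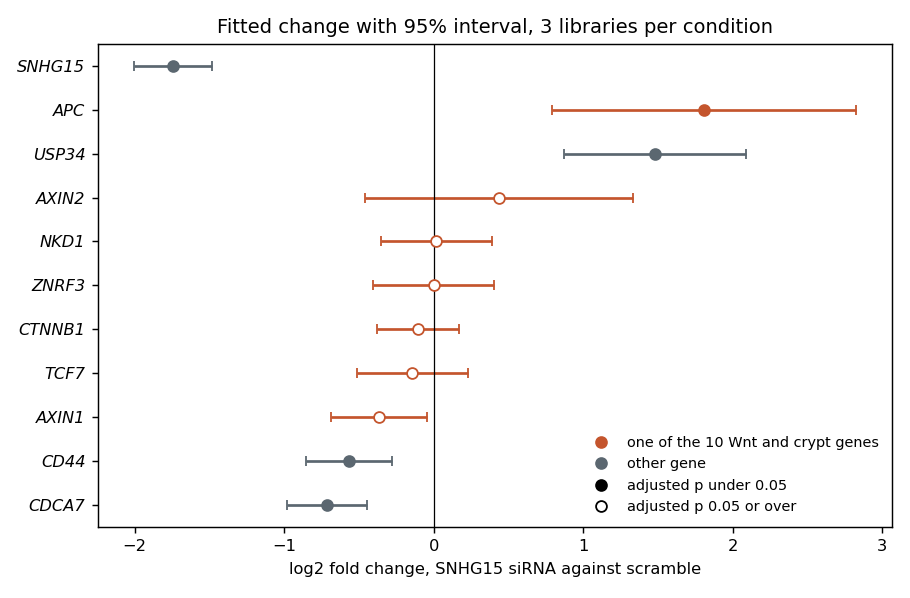
Log2 fold change, *SNHG15* siRNA against scramble, with its 95% interval from edgeR for the 7 tested members (orange), for *SNHG15* and for the other Wnt pathway or crypt genes past the threshold (grey), with filled points at an adjusted p under 0.05. *APC* is the only filled member, and the intervals of the other members except *AXIN1* include 0.

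*LGR5*, *ASCL2* and *RNF43* were at or near 0 counts in the cells labelled LoVo, in both conditions. *LGR5*, the R-spondin receptor that marks crypt base stem cells, had 0 counts in all 6 libraries, out of 44583675 counts in total. In a single library a count of 0 allows up to 3 counts, which corresponds to 0.298 to 0.907 CPM depending on the library. With 0 counts in all 6 libraries, the limit for *LGR5* over the series is lower than in any single library. *ASCL2* had 2, 0 and 0 counts in the scramble and 1, 0 and 1 in the siRNA libraries. *RNF43*, the second Frizzled ligase, had 0, 2 and 0 and then 0, 1 and 0. These 3 genes were too low for any comparison, and no fold is given. The other ligase, *ZNRF3*, had 24 to 106 counts in the same libraries. These limits cover counting error only. In GRCh37 *LGR5* (ENSG00000139292) lies on chromosome 12 from 71833578 to 71980090, *ASCL2* (ENSG00000183734) on chromosome 11 from 2289728 to 2291818 and *RNF43* (ENSG00000108375) on chromosome 17 from 56431037 to 56494956.

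Sequence sharing and the labelled identity were set beside these low counts, and the part of either was not tested. *ASCL2* shares no exon bases with another gene. *LGR5* shares 4.0% with ENSG00000288530 on the opposite strand, which is not among the rows counted. Of the *RNF43* exon bases, 68.4% also belong to ENSG00000285897 on the same strand, an identifier that is not among the rows counted. Another 5.5% figure applies to bases opposite *TSPOAP1-AS1*, which had at most 2 counts in any library. The 7 epithelial markers at or under 3 counts, given above, were as low as these genes in both conditions, with at most 1 count in any library. Other markers of that list were counted in all libraries, with scramble means of 46.5 CPM for *KRT8*, 27.9 for *CDX2*, 23.9 for *KRT18* and 7.52 for *CDH1*. The *RNF43* promoters are shown beside that of *CTNNB1*, 2 genes picked for their levels, again with CG pairs in capitals.
*RNF43* start 1, chr17:58402722-58402841, minus strand: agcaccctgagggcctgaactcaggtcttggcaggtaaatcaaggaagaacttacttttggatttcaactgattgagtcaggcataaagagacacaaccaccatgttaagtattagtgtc
*RNF43* start 2, chr17:58417535-58417654, minus strand: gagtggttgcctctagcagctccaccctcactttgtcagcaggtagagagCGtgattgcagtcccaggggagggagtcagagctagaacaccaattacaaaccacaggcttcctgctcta
*CTNNB1*, chr3:41199385-41199504, plus strand: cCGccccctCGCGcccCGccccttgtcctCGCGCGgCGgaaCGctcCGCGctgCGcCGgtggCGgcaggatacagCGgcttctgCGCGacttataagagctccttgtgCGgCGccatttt
Over the whole 300 bases the *RNF43* promoters hold 0 and 5 CG pairs and that of *CTNNB1* holds 39. The *APC* promoters hold 14 and 23, that of *AXIN1* 44, and those of *TCF7* 25 and 3. The median over all promoters was 14, and 33.7% held 5 or fewer, so a low CG count was common in the table. Whether the CG count goes with the level of a gene was not tested.

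Per kilobase of canonical transcript, levels of the 10 genes covered a wide range. In the scramble libraries the order was *CTNNB1* (43.0 ± 2.63 CPM per kb, SD, n = 3), *AXIN1* (25.7 ± 3.93), *TCF7* (8.57 ± 1.04), *ZNRF3* (1.29 ± 0.239), *NKD1* (0.881 ± 0.166), *AXIN2* (0.370 ± 0.0920), *APC* (0.0983 ± 0.0134), and then *ASCL2*, *RNF43* and *LGR5*. *ZNRF3* and *NKD1* overlapped between libraries, as did *APC* and *ASCL2*, and the genes at the floor were not told apart from each other. With the *SNHG15* siRNAs the order was the same. There *NKD1* and *AXIN2* overlapped, and *APC*, at 0.366 ± 0.215 CPM per kb, overlapped *AXIN2* at 0.517 ± 0.293. The level of *CTNNB1* per kb was 437 times that of *APC* in the scramble and 109 times in the siRNA libraries. These are ratios of means and are rough, since *APC* had only 3 to 45 counts per library. The canonical transcript of *NKD1* is 17039 bases long, so its level per kb depends on how much of that length was transcribed. The same holds for *APC*, with 10704 bases.

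Beyond the 10 members, 112 other genes of the pathway and the crypt were read from lists. These were written from general knowledge with earlier results of these data known. Of these, 43 had at most 3 counts in every library and 62 were tested. Among the 62, 1 gene rose and 2 fell at an adjusted p under 0.05, which is 4.84% of them against 5.36% of all genes tested. In 33.9% of the 62 the conditions did not overlap, against 28.8% of all genes. Their median log2 fold change was 0.016.

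Ligands were mostly absent. Of 19 Wnt genes, 10 had 0 counts and 15 had at most 3, and the counted ones were *WNT10A* at 8.57 ± 1.88, *WNT3* at 6.84 ± 1.30, *WNT2B* at 4.57 ± 0.717 and *WNT11* at 1.93 ± 0.466 CPM in the scramble libraries (SD, n = 3 each). None of these 4 passed the adjusted threshold in edgeR, and 2 had an unadjusted p under 0.05, against 22.5% of all genes tested. DESeq2 called none either. *WLS*, which carries Wnt proteins to the surface, had 81.2 ± 3.83 CPM and *PORCN*, which acylates them, 21.6 ± 1.80 CPM. Of the R-spondins and their receptors, 6 of 7 had at most 3 counts, and *LGR4* had 1.65 ± 0.127 CPM.

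Receptors were better represented, with 11 of 15 tested and 0 past the adjusted threshold in edgeR, against 2 at an unadjusted p under 0.05 (22.5% of all genes tested) and 0 in DESeq2. *LRP5*, a co-receptor for Wnt, went from 49.1 ± 5.92 to 37.3 ± 4.46 CPM (SD, n = 3 each). The log2 fold change of -0.40 did not pass, at an adjusted p of 0.131 from edgeR. *FZD6* had 44.9 ± 6.01 and then 47.2 ± 13.03 CPM, and *RYK* 31.1 ± 3.71 and then 37.5 ± 5.85 CPM. Of 13 secreted or surface inhibitors 9 had at most 3 counts. *KREMEN1*, a receptor for the DKK inhibitors, had 25.2 ± 1.68 and then 32.3 ± 2.46 CPM (adjusted p = 0.168 from edgeR). *NOTUM*, an esterase that removes the lipid from Wnt proteins and is a β-catenin target, had 8.05 ± 1.27 and then 12.2 ± 3.25 CPM (adjusted p = 0.165 from edgeR). *KREMEN2* had 1.26 ± 0.0471 and then 1.45 ± 0.633 CPM. The filter left it untested in edgeR, and DESeq2 gave a log2 fold change of 0.17 (adjusted p = 0.936).

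All 21 genes of the destruction complex and its regulators were tested, and 2 passed in edgeR and in DESeq2, *APC* and *USP34*, against 5.36% and 5.8% of all genes. *APC* reached the filter only through the siRNA libraries, and *USP34* passed it in both conditions. *USP34* encodes a large deubiquitinase that acts on axin. It had 4.92, 3.08 and 2.72 CPM in the scramble and 13.3, 7.34 and 10.5 CPM in the siRNA libraries, all above the scramble range. *USP34* rose, with a log2 fold change of 1.48 (SE 0.28, 95% interval 0.87 to 2.09, adjusted p = 0.0109 from edgeR). It was 1.33 with an adjusted p of 0.0862 without scramble replicate 2. Like *APC* it has a long transcript, with 11675 bases in 80 exons, and few counts, 9 to 96 per library. The genes of this list with the highest levels in the scramble libraries did not pass. *PPP2CA* had 238 ± 5.41 and then 185 ± 28.6 CPM (adjusted p = 0.127 from edgeR). *CSNK1E* had 193 ± 13.8 and then 189 ± 20.7 CPM, and *CSNK1D* 157 ± 21.1 and then 160 ± 7.24 CPM. *DVL1* was close to *CSNK1D*, with 152 ± 14.1 and then 172 ± 33.5 CPM, and did not pass either.

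Of 16 nuclear effectors 13 were tested, and 0 passed the adjusted threshold in edgeR or in DESeq2, while 3 had an unadjusted p under 0.05, against 22.5% of all genes tested. The most abundant over all 6 libraries beside *CTNNB1* were the corepressor genes *CTBP1*, with 176 ± 10.1 and then 160 ± 27.6 CPM, and *CTBP2*, with 49.7 ± 3.28 and then 42.7 ± 3.22 CPM (SD, n = 3 each). *TLE3*, another corepressor gene, was close to *CTBP2*, with 50.2 ± 7.12 and then 40.7 ± 4.08 CPM. The median log2 fold change of the 13 was -0.14, with 10 of them below 0, beside 0.0005 over all genes tested.

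Among 24 Wnt target genes, 12 were tested and 1 fell, against 2.23% of all genes tested. *CD44*, a hyaluronan receptor and a marker of crypt and cancer stem cells, had 134, 134 and 142 CPM in the scramble and 76.7, 101 and 99.1 CPM in the siRNA libraries. The siRNA libraries were all lower than the lowest scramble library. *CD44* fell, with a log2 fold change of -0.57 (SE 0.13, 95% interval -0.85 to -0.28, adjusted p = 0.0274 from edgeR). The adjusted p was 0.0952, 0.101 and 0.096 without scramble replicate 1, 2 or 3 and 0.0546 without siRNA replicate 2. *SOX4*, a transcription factor gene, differed between the tools. It had 1.88, 3.78 and 3.02 CPM in the scramble and 12.6, 5.61 and 4.82 CPM in the siRNA libraries, which did not overlap. Its log2 fold change was 1.39 (SE 0.39), with an adjusted p of 0.0562 from edgeR and 0.0263 from DESeq2. DESeq2 called *CD44* and *SOX4* in this list, against 5.8% of all genes. *CCND1*, which encodes cyclin D1, had 64.8 ± 2.34 and then 68.8 ± 5.78 CPM (adjusted p = 0.716). The median log2 fold change of the 12 was 0.022, with 5 of them below 0, beside a median of 0.0005 over all genes tested.

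Of 20 crypt stem cell genes 10 were tested, and 2 of them fell, *CD44* and *CDCA7*, against 2.23% of all genes tested. *CD44* is the same call as in the list of Wnt targets, and DESeq2 called the same pair. *CDCA7*, which encodes a zinc finger protein of dividing cells and is also known as a MYC target, had 109, 104 and 108 CPM in the scramble and 57.5, 68.8 and 69.3 CPM in the siRNA libraries. The conditions were well apart. *CDCA7* fell, with a log2 fold change of -0.71 (SE 0.12, 95% interval -0.98 to -0.45, adjusted p = 0.00761 from edgeR), and it passed in all 6 fits that left out a library. *RGMB*, a BMP co-receptor, was the most abundant gene of the list, with 287 ± 30.5 and then 221 ± 33.4 CPM (log2 fold change -0.38, adjusted p = 0.135). The median log2 fold change of the 10 was -0.18, with 8 of them below 0, beside a median of 0.0005 over all genes tested. An unadjusted p under 0.05 in edgeR was found for 5 of the 10, against 22.5% of all genes tested. The list was written with earlier results of these data known, so these values only describe it. *OLFM4*, *SMOC2*, *HOPX* and *PROM1*, further markers of crypt stem cells, had 0 counts in every library, like *LGR5*.

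**Figure D4:**
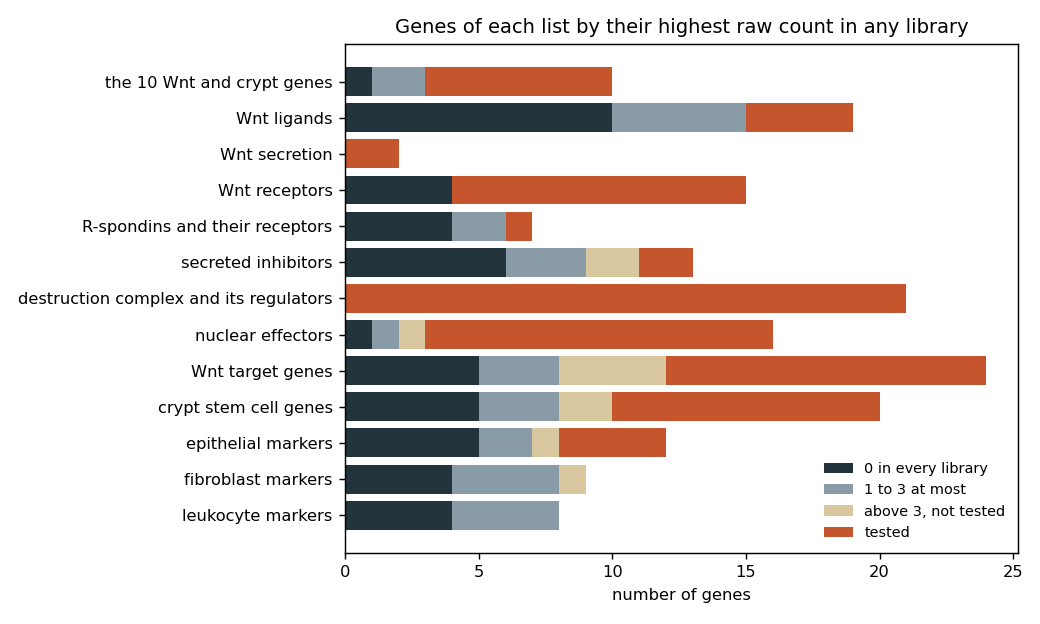
Number of genes (horizontal axis) in each list, divided by the highest raw count that a gene reached in any of the 6 libraries and, above 3 counts, by whether it was tested. All 21 genes of the destruction complex and its regulators were tested, whereas 15 of 19 Wnt ligands, 6 of 7 genes of the R-spondin group and 7 of 12 epithelial markers had at most 3 counts.

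For *APC*, *CTNNB1* and *AXIN2* the genes with the most similar pattern over the 6 libraries were sought among genes with a mean of at least 10 CPM. For *APC* they were *SCAMP2*, *ADCY7* and *GFOD1*, with Pearson's r of log2 CPM from 0.989 to 0.992. For *CTNNB1* they were *TM9SF3*, *USP45* and *RNF2*, with r from 0.985 to 0.989, and for *AXIN2* *LINC00938*, *MAST4* and *YWHAH*, with r from 0.956 to 0.968. Each is the highest of over 8000 values of r over only 6 libraries of 2 conditions, which share depth and condition, so it is a description of these libraries.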

How the data were processed

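The authors deposited raw read counts per Ensembl gene, not normalized, for 63677 genes in 6 libraries made with a stranded mRNA kit. The study's methods name bowtie2 and hg19, while the submitters' processing notes name STAR, featureCounts and hg19. Versions, annotation and the use of strand or multiply placed reads are not given in the sources used here, so genes that share exons carry an added uncertainty. Groups came from the sample titles, and 0 columns were unassigned. The samples are called biological replicates in the methods.

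The counts were filtered with filterByExpr from edgeR 4.0.16 (R 4.3.3, minimum count 10, total 15), scaled by TMM factors and put to the quasi-likelihood test of 3 *SNHG15* siRNA against 3 scramble libraries, with Benjamini-Hochberg adjustment over all 12507 genes tested and a threshold of 0.05. Standard errors were derived from each fold change with its F value. Replicate pairs of a group differed by more than sampling noise, the chi-square over its degrees of freedom being 4.34 or more. Gene names, GRCh37 positions and lengths came from GENCODE release 44, in which 8012 identifiers had no entry, and promoters from RefSeq. The alternatives were DESeq2 1.42.0, RLE and upper-quartile factors, other filters, loess offsets (span 0.3) for GC content and length, the replicate block and leaving out each library. The steps were tested on simulated data.

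The members and lists were chosen with earlier results of these data known. Named genes were the 10 members, *SNHG15*, the other list genes past the threshold, the 3 most abundant genes of each list and the 3 genes nearest in pattern to *APC*, *CTNNB1* and *AXIN2*. Genes named for their low counts, the marker genes, *WNT11*, *SOX4*, *TLE3* and *DVL1* were added after their values were seen. Some genes are not reported here.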

Additional observations from a re-analysis of the deposited data

How the results depend on the processing

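The fall of *SNHG15* passed under every alternative. The count of changed genes, 671, was 1312 without a filter on low counts. The number of members past the threshold, 1, was 0 with at least 10 counts in every library, a filter that leaves *APC* untested, 0 with the length offset and 2 with the GC offset, where *AXIN1* passed as well. The median log2 fold change of the members, -0.0005, was -0.066 without a filter, -0.081 with at least 10 counts in every library and -0.12 with the length offset. These medians do not all cover the same genes. Without a filter *ASCL2* and *RNF43*, which lie at the floor, are included. With at least 10 counts in every library *APC* and *AXIN2* are both left out. The other pathway genes past the threshold, 3, were 6 with the GC offset. In the 6 fits that each left out a library, the changed genes numbered between 139 and 812, with 199, 139 and 266 without scramble replicate 1, 2 or 3 and 356 without siRNA replicate 2, the members past the threshold from 0 to 1, their median from -0.10 to 0.028 and the other pathway genes from 1 to 5.

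The direction of 4 genes with small or uncertain differences turned. *ZNRF3*, at -0.0005, was 0.040 with upper-quartile factors, 0.022 with at least 10 counts in every library, 0.029 with the replicate block and 0.0066 with the block and the GC offset, and -0.094 to 0.16 when a library was left out. *NKD1*, at 0.018, was -0.0071 without a filter, -0.14 with the length offset and -0.10 to 0.14 when a library was left out. Leaving out a library gave -0.16 to 0.66 for *AXIN2* and -0.28 to 0.0057 for *TCF7*. The cause was not tested.

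The replicate numbers are shared between conditions, but the labels give them no meaning, and the deviations of same-numbered libraries correlated at -0.07, 0.16 and -0.04 for numbers 1 to 3, so the libraries were not treated as pairs. Of the same-numbered libraries, only those of number 2 were each other's best match. Scramble replicate 3 with siRNA replicate 1 (0.14) and scramble replicate 1 with siRNA replicate 3 (0.059) were best matches of each other as well. With the replicate block 543 genes passed instead of 671, 1 member passed, and *APC* had a log2 fold change of 1.94 (adjusted p = 0.0261 from edgeR). At these depths *APC*, *AXIN2* and *USP34* rest on under 100 counts each per library, and smaller changes in such genes were not detectable.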
